A study of Mus musculus with 6 samples.

Results

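The genes described are those of the enzymes that write and erase DNA methylation: the DNA methyltransferases Dnmt1, Dnmt3a and Dnmt3b, the maintenance cofactor Uhrf1, and the dioxygenases Tet1, Tet2 and Tet3. They were taken by name, as 7 of the 38924 rows of a table of RPKM values (reads scaled by gene model length and library total), and all 7 passed the filter on low values. The RNA came from C57BL/6 bone marrow, sorted for cells with GFP and the progenitor receptor c-kit and without markers of mature lineages. The 6 libraries form 3 groups of 2: Evi1-GFP marrow at 6 months after transplantation (leukemia), Evi1-GFP marrow at 4 weeks (preleukemia), and GFP marrow at 4 weeks (mock). In every group the recipients had been transplanted with transduced marrow, and the cells carried GFP. The labels name no promoter for the transgene and no age or number of mice, and it is not stated that a group's 2 libraries came from different recipients, so the p-values reflect library-to-library spread that may be technical. Since the series lists no GFP libraries at 6 months, leukemia and time after transplantation cannot be told apart.

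Methylation of cytosine in CpG pairs is laid down on unmethylated DNA by the de novo enzymes Dnmt3a and Dnmt3b and copied at each replication by Dnmt1, which Uhrf1 brings to hemimethylated DNA behind the replication fork. Tet enzymes oxidize methylcytosine, which leads to its loss through replication or base excision repair. In blood, Dnmt3a and Tet2 are known as restraints on the self-renewal of stem cells and are often mutated in myeloid leukemia, and the Evi1 protein is known to bind Dnmt3a and Dnmt3b.

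In leukemia, Dnmt3a and Dnmt3b mRNA were higher and Tet1 mRNA was lower than in mock and than in preleukemia. Dnmt3a was also higher in preleukemia than in mock. Levels of the maintenance pair Dnmt1 and Uhrf1, and of Tet2 and Tet3, did not pass the test in any of the 3 comparisons. The plot of levels by library shows these values.

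**Figure D1:**
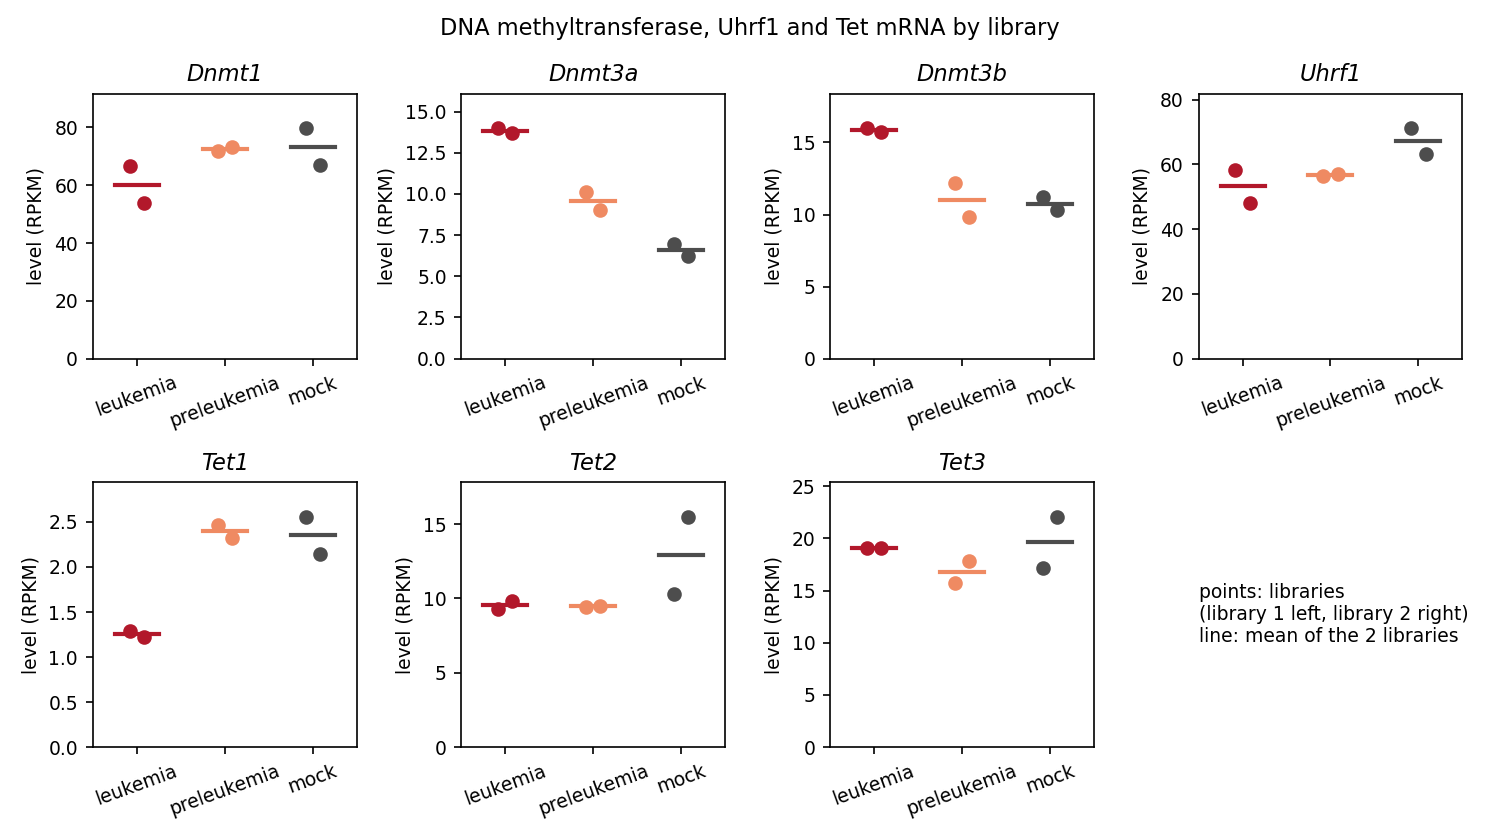
Level in RPKM (vertical axes, each from 0) of the 7 genes in each library (points) with the mean of each group (line). Dnmt3a is at 13.7 to 14.0 RPKM in leukemia, 9.03 to 10.1 in preleukemia and 6.22 to 6.98 in mock, without overlap, and Tet1 is at 1.22 to 1.29 RPKM in leukemia and at 2.14 to 2.56 in the other 4 libraries.

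The libraries held between 16906252 and 21628028 reads, as recovered from the steps between low values, so that 3 reads on a gene model of 1 kb equal 0.139 to 0.177 RPKM. At these depths Tet1, the member with the lowest level, rested on about 371 to 856 reads a library, and Dnmt1, that with the highest, on about 7795 to 12716, using exon lengths of GENCODE M21. Mecom, the gene that encodes Evi1, was at 61.7 and 71.5 RPKM in leukemia, 78.0 and 80.1 in preleukemia and 0.774 and 0.805 in mock, so the libraries labelled Evi1 stood far above the others. Kit, which encodes the sorted receptor, was at 49.3 and 46.8 RPKM in leukemia, 60.0 and 56.9 in preleukemia and 69.2 and 57.7 in mock. Cd34, another marker of progenitors, was at 127 and 98.6 RPKM in leukemia, 63.5 and 47.2 in preleukemia and 142 and 112 in mock. It was lower in preleukemia than in mock (-1.19, limma adjusted p = 0.00945) and higher in leukemia than in preleukemia (1.02, adjusted p = 0.0162). Markers of other cell types moved with the groups. Of 6 tested mast cell and basophil markers, 5 fell in leukemia and 4 in preleukemia against mock, and none rose. Of 6 tested B-lymphoid markers, 5 fell and 1 rose in each of these comparisons. Of 6 tested megakaryocyte markers, 3 fell in leukemia against mock and 5 in leukemia against preleukemia, while 2 rose in preleukemia against mock. The summed level of 8 erythroid markers was 4.71 and 14.5 RPKM in leukemia, 192 and 117 in preleukemia and 357 and 149 in mock, most of it in mock from Car1 (174 and 73.4) and Car2 (126 and 52.0). Of the 7 erythroid markers tested, 6 fell in leukemia against mock, while in preleukemia against mock none fell and 1 rose, Hba-a1, at 31.6 and 21.1 RPKM in preleukemia and 6.10 and 4.81 in mock (2.06, adjusted p = 0.0316). The summed level of 10 neutrophil markers was 420 and 722 RPKM in leukemia, 3860 and 8280 in preleukemia and 12.0 and 17.2 in mock. In both Evi1 groups most of it came from S100a8 (227 and 373 in leukemia, 2180 and 4120 in preleukemia) and S100a9 (173 and 284, 1470 and 3050). Of the 10 neutrophil markers, 4 rose and 6 did not pass in leukemia against mock. In preleukemia against mock 7 rose and 3 did not pass. Of these 7, Mmp9 passed the filter only through preleukemia (2.74 and 15.5 RPKM). Ltf passed it only through the Evi1 groups (17.4 and 166 in preleukemia, 0.208 and 1.43 in leukemia). Both therefore had to differ from mock. The part of the cell type markers in the results below was not tested, and in such bulk samples fewer cells of a type and less RNA per cell cannot be told apart. The pair of mock libraries differed more than the other pairs, with a median absolute log2 difference of 0.108 in leukemia, 0.112 in preleukemia and 0.216 in mock.

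Since RPKM is scaled by length, levels can be set side by side between genes, as far as the gene models fit the transcripts of these cells. In leukemia, Dnmt1 and Uhrf1 stood at the top with overlapping libraries, followed by Tet3, Dnmt3b, Dnmt3a, Tet2 and Tet1, each below the one before in both libraries. The order in preleukemia was Dnmt1, Uhrf1, Tet3, Dnmt3b, Dnmt3a, Tet2 and Tet1, in which the libraries of Dnmt3a overlapped those of both Dnmt3b and Tet2. In mock, Dnmt1 overlapped Uhrf1, Tet3 came next, Tet2 overlapped Dnmt3b, and Dnmt3a stood below both and above Tet1. Among all tested genes, the mean level of Dnmt3a lay at percentile 69.5 in leukemia, 54.3 in preleukemia and 43.9 in mock. The mean level of Dnmt1 lay between percentiles 95.2 and 96.2 in all groups.

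Dnmt3a is a protein-coding gene (ENSMUSG00000020661.15, plus strand, chr12:3806007-3914443 in GRCm38 per GENCODE M21). Its level was 14.0 and 13.7 RPKM in leukemia, 10.1 and 9.03 RPKM in preleukemia and 6.98 and 6.22 RPKM in mock. No library of one group overlapped another group, with leukemia highest and mock lowest. Its mean was 2.10 times as high in leukemia as in mock, and on the scale of log2(RPKM + 1) it rose by 0.97 (SE 0.11, 95% interval 0.70 to 1.24, limma adjusted p = 0.00222). This difference was larger in size than that of 90.8% of the genes tested. Preleukemia stood above mock by 0.48 (95% interval 0.20 to 0.75, limma adjusted p = 0.0314), and leukemia above preleukemia by 0.49 (95% interval 0.22 to 0.77, limma adjusted p = 0.0295). The table holds 1 value a gene, so the long and the short Dnmt3a protein, which are known to be made from separate promoters, cannot be told apart.

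The rise in leukemia against mock passed under all 17 alternatives, including each library left out in turn, with log2 differences of 0.70 to 1.06. The rise in preleukemia did not pass when mock library 2 or any of the preleukemia or leukemia libraries was left out (adjusted p = 0.0559 to 0.192), and passed without mock library 1 (adjusted p = 0.0146). The summed level of 7 monocyte and macrophage markers was 555 and 578 RPKM in leukemia, 419 and 379 in preleukemia and 227 and 312 in mock, of which F13a1 alone gave 340 and 364 in leukemia, 264 and 248 in preleukemia and 95.3 and 150 in mock. The markers did not move as 1 group. F13a1 and Cd68 had the order of groups of Dnmt3a without overlap, with Cd68 at 45.2 and 49.6 RPKM in leukemia, 23.1 and 23.3 in preleukemia and 12.6 and 16.6 in mock, whereas Ccr2 was at 3.67 and 3.57 in leukemia, 3.33 and 3.22 in preleukemia and 11.8 and 12.0 in mock. In leukemia against mock 3 of the 7 rose, 1 fell and 3 did not pass, and between preleukemia and mock 2 rose, 2 fell and 3 did not pass. Their part in the Dnmt3a result was not tested.

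Dnmt3b, the other de novo enzyme, is encoded at chr2:153649450-153687730 (plus strand). Its level was 16.0 and 15.7 RPKM in leukemia, 12.2 and 9.85 RPKM in preleukemia and 11.2 and 10.3 RPKM in mock. Both leukemia libraries stood above all others, while the preleukemia libraries lay on either side of the mock pair. Its mean was 1.48 times as high in leukemia as in mock, a rise of 0.52 on the log2 scale (SE 0.13, 95% interval 0.22 to 0.83, limma adjusted p = 0.0259). Against preleukemia it rose by 0.50 (95% interval 0.20 to 0.80, limma adjusted p = 0.0391). Between preleukemia and mock the difference was 0.03 (95% interval -0.28 to 0.33, adjusted p = 0.899), and -0.04 after either other scaling of the libraries, so its direction was not set. Without mock library 2, leukemia library 1 or leukemia library 2 the rise against mock did not pass (adjusted p = 0.052 to 0.133), with differences of 0.465 to 0.584 over all libraries left out.

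**Figure D2:**
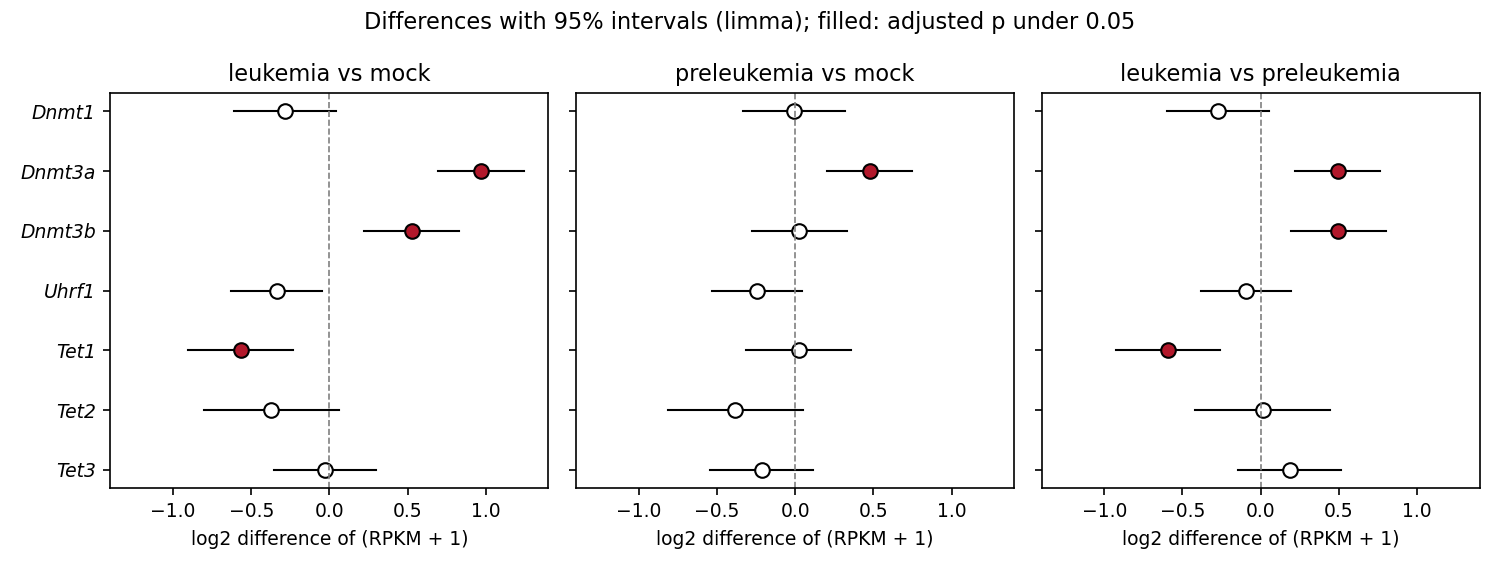
Difference on the scale of log2(RPKM + 1) (horizontal axes) for each gene (rows) in the 3 comparisons, with the 95% interval of limma's fit as a line and filled points where the adjusted p is under 0.05. Dnmt3a is filled in all 3 panels, Dnmt3b and Tet1 in the panels with leukemia, and the intervals are not adjusted for the number of genes, which is why that of Uhrf1 in leukemia against mock (-0.63 to -0.05) leaves out 0 while its adjusted p is 0.0844.

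Tet1, the Tet enzyme best known from embryonic stem cells, is encoded at chr10:62804570-62908996 (minus strand). Its level was 1.29 and 1.22 RPKM in leukemia, 2.47 and 2.32 RPKM in preleukemia and 2.56 and 2.14 RPKM in mock. Both leukemia libraries were below every other library, and preleukemia and mock overlapped. The mean in leukemia was 0.534 times that in mock and 0.524 times that in preleukemia. On the log2 scale, which understates changes at such low levels, Tet1 fell by 0.57 against mock (SE 0.14, 95% interval -0.90 to -0.24, limma adjusted p = 0.0275). Against preleukemia it fell by 0.59 (95% interval -0.92 to -0.26, limma adjusted p = 0.0313). With a pseudocount of 0.1 in place of 1, the falls were 0.85 and 0.88. The fall against mock passed without mock library 2 (adjusted p = 0.0257) and did not pass when any 1 of the other 5 libraries was left out (adjusted p = 0.0554 to 0.159). Between preleukemia and mock the difference was 0.02 (95% interval -0.31 to 0.35, adjusted p = 0.927), which turned to -0.03 and -0.08 after the other scalings. None of the calls of Dnmt3a, Dnmt3b and Tet1 in leukemia against preleukemia passed in limma when any 1 of the 4 libraries compared was left out (adjusted p = 0.0704 to 0.256).

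Tet2, the Tet enzyme most often mutated in myeloid disease, is encoded at chr3:133463679-133545139 (minus strand). Its level was 9.29 and 9.84 RPKM in leukemia, 9.44 and 9.51 RPKM in preleukemia and 10.3 and 15.5 RPKM in mock. The Evi1 libraries lay within a narrow range just below mock library 1, and mock library 2 stood apart from all of them. The difference was -0.37 in leukemia against mock (95% interval -0.80 to 0.06, limma adjusted p = 0.176) and -0.38 in preleukemia against mock (95% interval -0.82 to 0.05, adjusted p = 0.18). Leaving out mock library 1 made both pass, at -0.65 (adjusted p = 0.00675) in leukemia and -0.66 (adjusted p = 0.0065) in preleukemia. Without mock library 2 they were -0.09 (adjusted p = 0.496) and -0.11 (adjusted p = 0.49), so the size of the difference rests on which mock library is used.

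Tet3 is encoded at chr6:83362373-83459084 (minus strand) and was the most abundant of the Tet mRNAs in each library. Its level was 19.14 RPKM in both leukemia libraries, 15.7 and 17.8 RPKM in preleukemia and 17.2 and 22.1 RPKM in mock. Leukemia lay inside the range of mock and above preleukemia. Its differences were -0.03 in leukemia against mock (95% interval -0.36 to 0.30), -0.21 in preleukemia against mock (95% interval -0.54 to 0.11) and 0.19 in leukemia against preleukemia (95% interval -0.14 to 0.51), none of which passed (limma adjusted p = 0.897, 0.309 and 0.393). Without mock library 1 the difference in preleukemia against mock was -0.38 and passed (adjusted p = 0.037).

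Dnmt1, the maintenance enzyme, is encoded at chr9:20907209-20959888 (minus strand). Its level was 66.7 and 53.8 RPKM in leukemia, 71.9 and 73.4 RPKM in preleukemia and 79.8 and 67.0 RPKM in mock. The leukemia libraries were the lowest, by a small margin, and the preleukemia libraries lay between the mock pair. The difference was -0.28 in leukemia against mock (95% interval -0.61 to 0.04, limma adjusted p = 0.172), -0.27 in leukemia against preleukemia (95% interval -0.60 to 0.05, adjusted p = 0.211) and -0.01 in preleukemia against mock (95% interval -0.34 to 0.32, adjusted p = 0.969).

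Uhrf1, its cofactor, is encoded at chr17:56303321-56323486 (plus strand). Its level was 58.3 and 48.1 RPKM in leukemia, 56.3 and 56.9 RPKM in preleukemia and 71.2 and 63.3 RPKM in mock. Both Evi1 groups lay below the mock pair. The difference was -0.34 in leukemia against mock (95% interval -0.63 to -0.05, limma adjusted p = 0.0844) and -0.24 in preleukemia against mock (95% interval -0.53 to 0.05, adjusted p = 0.202). Between leukemia and preleukemia it was -0.10 (95% interval -0.38 to 0.19, adjusted p = 0.63).

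Counted over the 7 genes, 2 rose, 1 fell and 4 did not pass in leukemia against mock. Of all 10958 genes tested, 25.6% were called in that comparison, 12.1% as higher and 13.5% as lower. Between preleukemia and mock 1 rose and 6 did not pass, beside 19.5% of all genes (13.5% higher and 6.02% lower). In leukemia against preleukemia 2 rose, 1 fell and 4 did not pass, beside 18.3% of all genes (5.27% higher and 13% lower). Tested without a filter on low values, the rise of Dnmt3a in leukemia against mock was the only one of these calls that passed. The share of called genes that were higher in leukemia against preleukemia was 28.8%, and 42.0% or 50.8% after trimmed-mean scaling or quantile normalization. For preleukemia against mock it was 69.2%, and 58.6% or 52.9% after those scalings. The libraries of the groups did not overlap for 6 of the 7 genes in leukemia against mock, 2 higher and 4 lower, where this held for 65.4% of all genes (30% higher and 35.5% lower). For preleukemia against mock it was 3 genes, 1 higher and 2 lower, beside 62.7% (37.2% higher and 25.5% lower), and for leukemia against preleukemia 5 genes, 3 higher and 2 lower, beside 70.7% (24.7% higher and 46% lower). The median log2 difference of the 7 genes was -0.28, -0.01 and 0.01 in the comparisons in that order, beside -0.04, 0.05 and -0.09 for all genes. The comparisons with mock share the mock libraries, and those with leukemia share the leukemia libraries, so the calls are not independent of each other.

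The makeup of each enzyme family was read from the same RPKM values, as a description with no test. The summed level of the DNA methyltransferases was 96.7 and 83.3 RPKM in leukemia, 94.2 and 92.3 in preleukemia and 98.0 and 83.5 in mock, so the groups overlapped. Dnmt1 made up 68.9% and 64.6% of that sum in leukemia, 76.3% and 79.5% in preleukemia and 81.4% and 80.3% in mock. The summed level of the de novo enzymes was 0.450 and 0.547 times that of Dnmt1 in leukemia, 0.310 and 0.257 times in preleukemia and 0.228 and 0.246 times in mock. Within the de novo pair, Dnmt3a held 46.6% and 46.5% in leukemia, 45.4% and 47.8% in preleukemia and 38.3% and 37.7% in mock, so both Evi1 groups stood above mock and overlapped each other.

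The summed Tet level was 29.7 and 30.2 RPKM in leukemia, 27.6 and 29.6 in preleukemia and 30.1 and 39.8 in mock. Tet1 made up 4.33% and 4.04% of it in leukemia, 8.95% and 7.83% in preleukemia and 8.52% and 5.37% in mock, lowest in both leukemia libraries. Tet3 made up 64.4% and 63.4% in leukemia, 56.9% and 60.0% in preleukemia and 57.3% and 55.6% in mock. The ratio of Dnmt3a to Tet1, the members that moved furthest in opposite directions, was 10.9 and 11.2 in leukemia, 4.09 and 3.90 in preleukemia and 2.72 and 2.91 in mock; it was chosen after the values were seen.

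**Figure D3:**
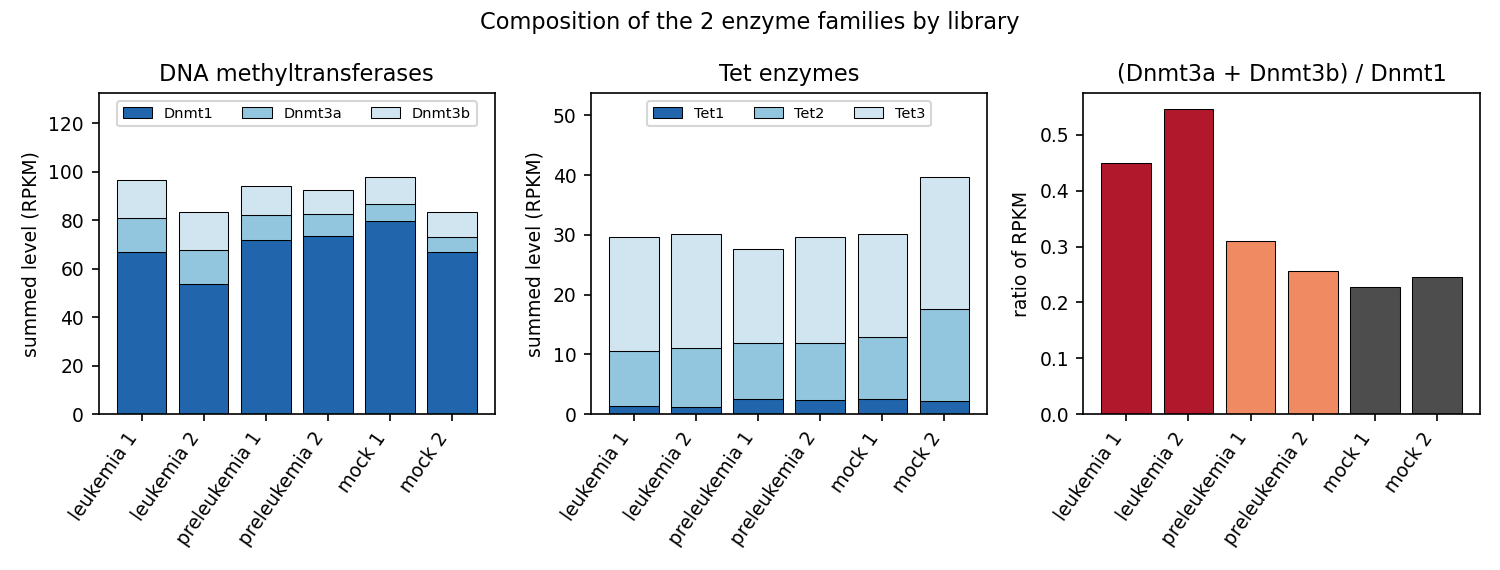
Level in RPKM of the DNA methyltransferases (left) and the Tet enzymes (middle), stacked for each library, and the ratio of Dnmt3a plus Dnmt3b to Dnmt1 (right). The stacked totals overlap between groups (83.3 to 98.0 RPKM for the methyltransferases), while the ratio is 0.450 and 0.547 in leukemia, 0.310 and 0.257 in preleukemia and 0.228 and 0.246 in mock.

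The promoter windows of the genes that passed the test are shown because CpG pairs, the substrate of the enzymes these genes encode, are dense in some of them. Methylation was not measured here. Sequences are from RefSeq on GRCm38.p6, 250 bases before to 50 bases after an annotated start, 5′ to 3′ on the strand of the gene, with each CpG pair in capitals. All 7 genes matched, with 12 starts in all. Dnmt3a has 3 annotated starts, of which the first and the last in the direction of transcription are given.
Dnmt3a, first start, chr12:3806730-3807029, plus strand: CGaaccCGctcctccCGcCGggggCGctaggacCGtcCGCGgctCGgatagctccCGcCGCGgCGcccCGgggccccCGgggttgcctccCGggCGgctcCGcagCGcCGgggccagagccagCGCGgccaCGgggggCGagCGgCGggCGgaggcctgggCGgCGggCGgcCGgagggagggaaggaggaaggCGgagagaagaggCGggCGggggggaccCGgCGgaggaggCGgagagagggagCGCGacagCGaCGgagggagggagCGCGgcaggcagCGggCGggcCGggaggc
Dnmt3a, last start, chr12:3891494-3891793, plus strand: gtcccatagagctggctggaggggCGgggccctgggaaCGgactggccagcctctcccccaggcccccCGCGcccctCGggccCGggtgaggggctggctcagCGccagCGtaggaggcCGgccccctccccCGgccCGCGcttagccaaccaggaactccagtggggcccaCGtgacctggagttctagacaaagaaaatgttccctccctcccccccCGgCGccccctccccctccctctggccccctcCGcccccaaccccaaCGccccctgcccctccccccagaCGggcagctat
Dnmt3b, chr2:153649199-153649498, plus strand: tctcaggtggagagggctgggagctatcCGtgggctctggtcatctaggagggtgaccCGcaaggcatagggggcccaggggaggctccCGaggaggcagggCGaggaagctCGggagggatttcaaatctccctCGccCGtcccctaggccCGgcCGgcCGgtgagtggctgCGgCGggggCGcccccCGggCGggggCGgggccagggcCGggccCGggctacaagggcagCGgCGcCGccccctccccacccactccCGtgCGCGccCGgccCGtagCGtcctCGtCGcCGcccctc
Tet1, chr10:62887275-62887574, minus strand: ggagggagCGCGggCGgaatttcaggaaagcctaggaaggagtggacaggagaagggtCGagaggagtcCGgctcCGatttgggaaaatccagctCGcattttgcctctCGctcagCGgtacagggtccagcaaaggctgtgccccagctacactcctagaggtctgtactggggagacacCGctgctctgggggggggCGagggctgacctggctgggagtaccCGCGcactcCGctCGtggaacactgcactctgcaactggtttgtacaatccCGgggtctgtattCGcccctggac

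The first Dnmt3a window held 46 CpG pairs, more than 98.4% of the 32851 windows of the same length over all genes, whose median was 7. The last Dnmt3a window held 18, that of Dnmt3b 30 and that of Tet1 17, each also above the median. The RefSeq windows of Dnmt3a, Tet1, Tet2 and Tet3 lie inside the GENCODE gene models given above, so the upstream ends of those models were not read. The windows of the members that did not pass were spread as widely, at 57 for Tet2, 22 for Tet3, 12 and 33 for the starts of Uhrf1, and 2, 12 and 33 for those of Dnmt1. These numbers overlapped those of the genes that passed. They cover annotated starts, and which of them these cells use was not tested. A search on both strands for 2 forms of the E2F motif, TTTCCCGC and TTTGGCGC, found TTTGGCGC in 1 of the 12 windows, at the last Dnmt1 start (chr9:20952574-20952873, minus strand), and TTTCCCGC in none. Other forms of the motif were not searched for, and the counts do not cover them. Over all windows 0.514% held TTTGGCGC and 1.07% held TTTCCCGC. The stretch is shown with the motif in capitals, since E2F factors are known to drive genes of DNA replication.
Dnmt1, last start: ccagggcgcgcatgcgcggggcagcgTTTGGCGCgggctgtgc
The letters GACAAGATA and GATAAGATA, taken from the GATA-like motif that Evi1 is known to bind, were in none of the 12 windows, and in 0.119% and 0.113% of all windows. These matches describe the letters of the windows and say nothing of binding.

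Genes that act beside the members were read from lists written from general knowledge. The counts for each list stand beside the share of all tested genes called. That share was 25.6% in leukemia against mock (12.1% higher, 13.5% lower) and 19.5% in preleukemia against mock (13.5% higher, 6.02% lower). In leukemia against preleukemia it was 18.3% (5.27% higher, 13% lower). Of 28 genes of replication and S phase, the phase in which Dnmt1 and Uhrf1 act, 15 fell and 13 did not pass in leukemia against mock (median log2 difference -0.47, beside -0.04 for all genes). After trimmed-mean scaling 16 fell there. Between preleukemia and mock 2 fell and 26 did not pass (median -0.21), or 5 and 7 fell after trimmed-mean scaling and quantile normalization, a check chosen after the data were seen, and in leukemia against preleukemia 3 fell and 25 did not pass (median -0.25). Rrm2, a subunit of ribonucleotide reductase, was at 25.1 and 23.4 RPKM in leukemia, 44.0 and 54.4 in preleukemia and 53.4 and 39.9 in mock (-0.91 in leukemia against mock, limma adjusted p = 0.0103). Cdc45, a part of the replicative helicase, was at 17.1 and 15.4 RPKM in leukemia, 24.6 and 26.7 in preleukemia and 23.8 and 24.1 in mock (-0.54, limma adjusted p = 0.0116). The summed RPKM of the list was 778 and 661 in leukemia, 849 and 842 in preleukemia and 1070 and 881 in mock. Dnmt1 and Uhrf1, at -0.28 and -0.34 without passing, lay on the same side as the list's median in leukemia against mock, while Dnmt3a and Dnmt3b lay on the other side. Whether the replication genes have a part in the levels of Dnmt1 and Uhrf1 was not tested.

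Among partners of the Tet enzymes and genes of excision repair, 19 were in the table and 16 were tested. In leukemia against mock 3 rose, 2 fell and 11 did not pass (median 0.18). Ogt, the O-GlcNAc transferase that binds Tet2 and Tet3, was at 120 and 133 RPKM in leukemia, 80.2 and 71.2 in preleukemia and 42.7 and 33.4 in mock. It rose in leukemia and in preleukemia by 1.72 and 0.98 against mock (limma adjusted p = 0.000684 and 0.00608) and in leukemia by 0.74 against preleukemia (adjusted p = 0.0157), without overlap between groups. Cxxc5, a CXXC-domain protein known to bind Tet2, was at 31.9 and 29.0 RPKM in leukemia, 19.3 and 17.0 in preleukemia and 14.9 and 12.6 in mock. It rose by 1.09 in leukemia against mock (limma adjusted p = 0.00197) and by 0.71 against preleukemia (adjusted p = 0.0118). Smug1, a glycosylase of base excision repair, rose by 0.74 in leukemia against mock (adjusted p = 0.0154). Gadd45b, a stress gene linked to DNA demethylation, fell by 1.72 (adjusted p = 0.0178), with mock libraries at 8.48 and 21.3 RPKM. For preleukemia against mock, 3 of the 16 rose, 1 fell and 12 did not pass (median 0.27), and in leukemia against preleukemia 2 rose, 1 fell and 13 did not pass (median 0.11). After quantile normalization 1 fell in leukemia against mock, and 4 rose in leukemia against preleukemia, where 3 rose after trimmed-mean scaling. After either other scaling 2 fell in preleukemia against mock.

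A list of methyl-CpG readers and proteins with related domains held 10 genes, all tested. In leukemia against mock 3 rose and 7 did not pass (median 0.21), and in preleukemia against mock 2 rose and 8 did not pass (median 0.17). Mbd6, a protein with a methyl-CpG-binding-like domain, was at 68.3 and 70.1 RPKM in leukemia, 57.8 and 60.3 in preleukemia and 40.4 and 37.5 in mock. It rose by 0.81 in leukemia and by 0.59 in preleukemia against mock (limma adjusted p = 0.00188 and 0.00767). Mbd4, a glycosylase that removes thymine from mismatches left by deaminated methylcytosine, rose by 0.71 and 0.58 (adjusted p = 0.0106 and 0.0265). In leukemia against preleukemia no gene of this list passed in limma's test, with 2 at an unadjusted p under 0.05. The smallest adjusted p was 0.0851, for Zbtb38 at -0.36, while 1 gene rose after either other scaling.

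Among 20 partners of the writers, 17 were tested. In leukemia against mock 1 rose, 2 fell and 14 did not pass (median -0.13), or 1 rose and 3 fell after either other scaling. Zbtb24, which is needed for methylation of centromeric repeats, rose by 0.51 (limma adjusted p = 0.0256). Setdb1, a histone methyltransferase, and Lig1, the ligase that binds Uhrf1 at the fork, fell by 0.45 and 0.51 (adjusted p = 0.0288 and 0.0357). For preleukemia against mock, 1 rose and 16 did not pass (median -0.08), or 2 and 3 fell beside 1 that rose after trimmed-mean scaling and quantile normalization, and in leukemia against preleukemia 1 fell and 16 did not pass (median -0.10). Both calls were of Hdac1, a histone deacetylase (0.45, adjusted p = 0.0311, and -0.55, adjusted p = 0.0176). Dnmt3l, the catalytically inactive partner of the de novo enzymes, did not pass the filter, at 0.159 and 0.204 RPKM in leukemia, 0.257 and 0.526 in preleukemia and 0.139 and 0.0828 in mock.

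The supply of cofactors was followed in 2 lists. Of 11 enzymes around 2-oxoglutarate, the cosubstrate of Tet enzymes, 1 rose, 2 fell and 8 did not pass in leukemia against mock (median -0.10). Between preleukemia and mock 1 rose and 10 did not pass (median -0.06), and in leukemia against preleukemia 1 fell and 10 did not pass (median -0.17), or 1 rose and none fell after quantile normalization. Idh1, the cytosolic isocitrate dehydrogenase that makes 2-oxoglutarate, averaged 31.8 ± 1.85 RPKM in leukemia, 51.5 ± 0.246 in preleukemia and 21.1 ± 5.90 in mock (SD, n = 2 each), so preleukemia was highest. It rose by 1.27 in preleukemia against mock (limma adjusted p = 0.00535) and by 0.59 in leukemia against mock (adjusted p = 0.0497), and fell by 0.68 in leukemia against preleukemia (adjusted p = 0.0411). Idh3a, a subunit of the mitochondrial enzyme, and Fh1, fumarate hydratase, fell by 0.66 and 0.67 in leukemia against mock (adjusted p = 0.0122 and 0.0177). Of 12 tested genes that supply or recycle S-adenosylmethionine, the methyl donor of the Dnmt enzymes, 1 rose, 2 fell and 9 did not pass in leukemia against mock (median 0.01), or 3 rose and 2 fell after trimmed-mean scaling and 2 rose and 2 fell after quantile normalization. Mat2a, which makes S-adenosylmethionine, rose by 0.52 (adjusted p = 0.0423). Ahcy, which clears the inhibitory product S-adenosylhomocysteine, and Mthfd1, of the folate cycle, fell by 0.55 and 0.89 (both adjusted p = 0.0312). In preleukemia against mock 1 fell, Shmt2 of the folate cycle (-0.44, adjusted p = 0.0457), and 11 did not pass (median -0.08), or 2 fell after quantile normalization. In leukemia against preleukemia none of the 12 passed in limma's test (median 0.03), with 0 at an unadjusted p under 0.05 and a smallest adjusted p of 0.195, for Mthfd1.

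**Figure D4:**
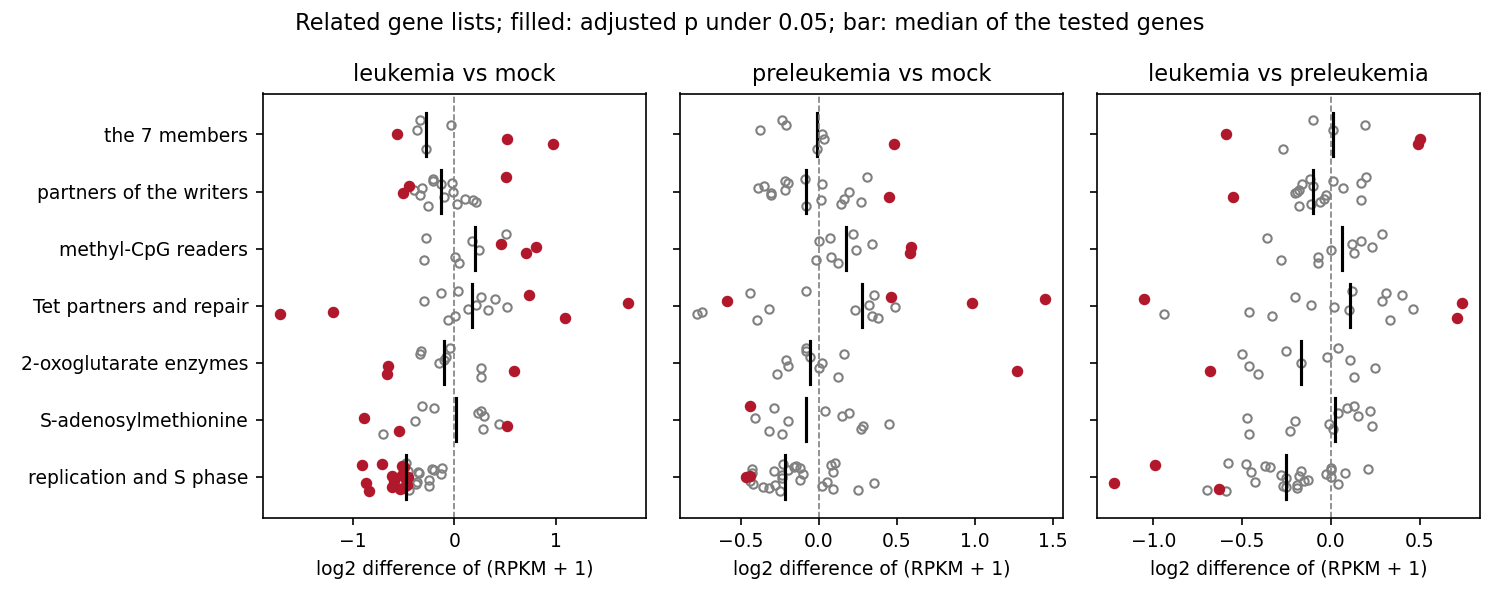
Difference on the scale of log2(RPKM + 1) (horizontal axes, which differ in range) of each tested gene in the 3 comparisons, by list (rows, with the 7 members on top), filled where the adjusted p is under 0.05, with a bar at the list's median. In leukemia against mock the replication list has 15 of 28 genes filled, all lower, with its median at -0.47, and the Tet partner list spans -1.72 (Gadd45b) to 1.72 (Ogt).

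The genes whose profiles over the 6 libraries were most like each member were found as those with the smallest Euclidean distance between log2(RPKM + 1) values centred on each gene's mean. With 10958 genes and 6 libraries, close profiles are many, and the distances are given as a description. For Dnmt1 they were Cenpa, the centromeric histone, at 0.0442, Chaf1a, a chromatin assembly factor of the replication fork, at 0.0747, and Aarsd1 at 0.0784. Uhrf1 was closest to Tasp1 (0.0753), Eif3l (0.0753) and Prim1, the primase (0.0988). For Dnmt3a the nearest were Mfsd1 (0.115), Sfxn3 (0.134) and Rnf17 (0.142), and Mfsd1 was at 53.7 and 51.3 RPKM in leukemia, 40.6 and 37.8 in preleukemia and 27.8 and 24.3 in mock. Rnf17 was at 1.52 and 1.18 RPKM in leukemia, 0.758 and 0.637 in preleukemia and 0.306 and 0.183 in mock. At such levels the scale compresses more than for Dnmt3a, and Rnf17 passed the filter only through leukemia. Dnmt3b was nearest to Ift81 (0.114), Strada and Ccdc111 (both 0.132). Ift81, at 1.3 RPKM in both leukemia libraries and 0.588 to 0.839 in the others, also passed the filter only through leukemia. Tet1 was nearest to Ssr1 (0.0901), Txn1 (0.1) and Atp5h (0.108), genes of higher level, for which the scale compresses less than for Tet1. Ssr1 was at 23.3 and 22.4 RPKM in leukemia, 37.3 and 35.5 in preleukemia and 38.3 and 34.5 in mock. Tet2 lay close to Lats1 (0.0492), Ino80 (0.0704) and Mob1b (0.108), all of which also stood highest in mock library 2. Tet3 was nearest to Dip2b (0.107), Smg9 and Rnf146 (both 0.109).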

How the data were processed

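RNA sequencing values came from 1 deposited table with 1 column a library. The authors deposited RPKM values; the unit is not named in the file and was inferred from the values: with exon lengths of GENCODE M21 (35433 of 38924 names matched 1 gene), 64.4% to 65.8% of values under 20 reads were within 0.02 of a whole read. Per the labels' protocols, Nucleospin RNA served for extraction and NEBNext Ultra RNA for libraries, a kit that by its name does not mark strand, so antisense reads cannot be told apart. CASAVA 1.8.2 and GRCm38 are named in the submitters' processing notes without roles. No aligner or annotation is named in the sources used here.

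The comparisons used limma (version 3.58.1, R 4.3.3) on log2(RPKM + 1), with a mean for each group over all 6 libraries and a spread that follows the mean level (3 residual and 3.7 prior degrees of freedom), two-sided. A gene was tested where 2 or more libraries reached 1 RPKM (10958 genes), and p-values were adjusted over all of these by the Benjamini-Hochberg method at 0.05. The test was tested on simulated data with the same spread in every library. The mock libraries differed more than the other pairs, so that run is no check of the calls made here. Depth and read floors cover counting error only. Alternatives were other pseudocounts, filters, scalings, priors, weights, fewer libraries and the replicate number as a block. The rule for names gave all 7 members, up to 4 genes of a list with the smallest p, and the 3 nearest profiles of each member; genes named beyond it were chosen after their values were seen. The members and lists were chosen with earlier results of these data known. Some genes that this rule picked are not reported here.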

Additional observations from a re-analysis of the deposited data

How the results depend on the processing

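Of the 354 values of single members under the alternatives, 299 kept their direction and side of the threshold, 37 no longer passed, 3 newly passed and 15 changed sign, none of which passed in either fit. The count of members called, 3, 1 and 3 in leukemia against mock, preleukemia against mock and leukemia against preleukemia, was 1, 0 and 0 without a filter on low values, where 4, 1 and 3 members had an unadjusted limma p under 0.05, and 1, 0 and 3 with array weights (unadjusted 3, 1 and 4). In a fit of the 4 libraries compared it was 2, 0 and 3 (unadjusted 3, 1 and 3). Leaving out 1 library gave 1 to 3, 0 to 3 and 0 to 3 members (unadjusted 3 to 5, 1 to 3 and 2 to 4), while the genes called among all tested ranged over 980 to 3697, 463 to 3766 and 404 to 3453, beside 2809, 2140 and 2006 with all libraries. Array weights called 2006, 1421 and 3786 genes, the fit of 4 libraries 1923, 1387 and 3419, and the fit without a filter 2311, 1435 and 1302. Tet1 was not tested at a minimum of 5 RPKM, and after quantile normalization it did not pass in leukemia against preleukemia (-0.47, adjusted p = 0.062).

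Signs turned as follows, for values close to 0 that did not pass in limma. After trimmed-mean scaling and quantile normalization, Dnmt3b in preleukemia against mock was -0.041 and -0.043, and Tet1 there was -0.030 and -0.084. Quantile normalization also turned Tet3 in leukemia against mock (0.030) and Uhrf1 in leukemia against preleukemia (0.049). With 1 library left out, the differences ran over -0.198 to 0.143 for Tet3 in leukemia against mock, over -0.134 to 0.115 for Dnmt1, -0.113 to 0.168 for Dnmt3b and -0.070 to 0.114 for Tet1 in preleukemia against mock, and over -0.231 to 0.040 for Uhrf1 and -0.026 to 0.050 for Tet2 in leukemia against preleukemia. Quantile normalization moved the median of all genes in that comparison to 0.03, beside -0.09 as deposited.

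The replicate number was tried as a block. It left the counts at 3, 1 and 3. The correlations of deviations between libraries of the same number were 0.0125 for leukemia and mock, 0.116 for preleukemia and mock and 0.179 for leukemia and preleukemia, so the libraries were taken to share only a number. The cause of calls lost without a library was not tested.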

Other observations

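Genes whose silencing in mouse somatic cells is known to rest on DNA methylation were listed beside the enzymes. Of 30 germline genes of this kind in the table, 9 were at 0 in every library and 1, Tdrd9, reached 1 RPKM in any library. Tdrd9, a helicase of the piRNA pathway, was at 46.7 and 42.5 RPKM in leukemia, 0.393 and 0.317 in preleukemia and 0.077 and 0.0617 in mock. It passed the filter only through leukemia, so it had to differ. Ddx4, a germ cell helicase, was at 0.134 and 0.179 RPKM in leukemia, 0.207 and 0.146 in preleukemia and 0.357 and 0.191 in mock, and Dazl, a germ cell RNA-binding protein, was at 0 in both leukemia libraries, at 0.0402 and 0.0157 in preleukemia and at 0.11 and 0 in mock, values near those of a few reads. Every other gene of the list stayed under 1 RPKM in every library.

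Of 28 imprinted genes in the table, 7 were at 0 in every library and 8 were tested. In leukemia against mock 2 rose and 1 fell, in preleukemia against mock 2 rose, and in leukemia against preleukemia 1 rose and 2 fell. Among all tested genes, 25.6%, 19.5% and 18.3% were called in these comparisons. Cdkn1c, an inhibitor of cyclin-dependent kinases, was at 2.00 and 3.56 RPKM in leukemia, 20.1 and 32.0 in preleukemia and 0.0719 and 0.256 in mock. It passed the filter only through the Evi1 groups, so it had to differ from mock, and it is 1 of the 2 that rose in each comparison with mock. It fell by 2.84 in leukemia against preleukemia (limma adjusted p = 0.00236). Slc22a18, a transporter gene of the same imprinted cluster, was at 2.02 and 1.96 RPKM in leukemia, 3.30 and 2.58 in preleukemia and 1.05 and 0.979 in mock, and rose by 0.57 and 0.96 against mock (adjusted p = 0.0338 and 0.00767). Grb10, a growth factor adaptor, was at 0.0628 and 1.08 RPKM in leukemia, 4.52 and 5.55 in preleukemia and 3.46 and 1.72 in mock, and fell by 2.02 in leukemia against preleukemia (adjusted p = 0.0129). Its fall against mock was 1.23 (adjusted p = 0.0476). Methylation of these genes was not measured here.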
